A study of Mus musculus with 4 samples.

Results

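The genes of the epidermal differentiation complex and the S100A genes beside them were examined in C2C12 cells, an established mouse line of muscle precursor cells (myoblasts) that fuse into myotubes when serum is withdrawn. They were chosen by symbol from the authors' deposited table: every gene whose symbol starts with Lce, Sprr or S100a followed by a number, and 10 cornified envelope and related genes named one by one. Of 20193 genes with a symbol 53 fitted, namely 18 Lce genes, 13 Sprr genes, 14 S100a genes and 8 others (Crct1, Crnn, Flg2, Ivl, Lor, Pglyrp3, Rptn and Tchh). All 53 lie on chromosome 3 in the RefSeq annotation of GRCm38.p6. A further 10 RefSeq genes of the locus with fitting symbols (Flg, Hrnr, Lce1j, Lce3d, Lce3e, S100a7l2, Sprr2a1, Sprr2a2, Sprr2a3 and Sprr2c-ps) were not analysed here.

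The cells were grown in growth medium with serum, transfected by lipofection, and clones were selected with Zeocin, per the labels. One group carried the empty plasmid pcDNA3.1/Zeo(+) and the other, a polyclonal line, Myolinc cloned into that plasmid. Myolinc is a long noncoding RNA, studied for its part in muscle differentiation. Total RNA of each group was hybridised to 2 Affymetrix arrays. The labels call these biological replicates without naming separate transfections or selections, so p-values measure only how far these arrays lie apart, and that spread may be technical. Effects of the insert and of the selected line cannot be told apart.

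The epidermal differentiation complex is a gene cluster named for its use in keratinocytes, the cells of the epidermis. Its LCE, SPRR, involucrin and loricrin proteins are cross-linked by transglutaminases into the cornified envelope, the tough shell that replaces the plasma membrane of dying keratinocytes, while filaggrin-type proteins such as Flg2, repetin, cornulin and trichohyalin combine an S100 domain with long repeats. The S100A genes at both ends of the cluster encode small EF-hand proteins that bind calcium and then dock onto partners such as annexins, and several of them are made in many tissues, muscle included. Myoblasts are not known for making a cornified envelope.

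The deposited values are log2 expression values, so a difference of 1 is a 2-fold change. Array medians lay between 7.24 and 7.35 over 28944 probe sets. Precision is limited by there being 2 arrays a group. Of the 53 genes 41 had a mean level below the median over probe sets, 7.27, and these are called low readings here. Of the 12 above it 8 were S100a genes, 3 were Lce1 genes (Lce1h, Lce1i and Lce1k) and 1 was Sprr1a. In bulk RNA, fewer cells with a transcript and less transcript per cell cannot be told apart.

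The comparison asked which transcripts differ in level once Myolinc is overexpressed. The 2 largest differences among the 53 genes, those of Lce1g and Lce1h, were in 1 stretch of the Lce1 cluster. In the Myolinc line Lce1h was 6.56-fold lower and Lce1g went from a mean of 7.77 to a low reading of 4.72. The other 5 measured genes of that stretch, from Lce1c to Lce1i, were lower too, by less. In the opposite direction Sprr1a was 2.46-fold higher and S100a16 1.36-fold higher. In limma, at a Benjamini-Hochberg adjusted p of 0.05 over all probe sets (the threshold), 6 of the 53 genes (11.3%) were past the threshold as lower and 2 (3.77%) as higher, beside 3.96% and 3.97% of all 20193 genes. The median log2 difference of the 53 was -0.01, and that of all genes 0.02. At least 2-fold lower were 3 of the 53, beside 0.461% of all genes, and 1 was at least 2-fold higher, beside 0.683%.

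These genes were taken up because the low values of Lce1g and Lce1h, the 4th and 6th lowest differences of all genes, were already known from this same contrast. All differences and calls here are therefore a description of these 4 arrays, and nothing is inferred from their number. For 1 gene, an exact two-sided permutation test of 2 against 2 arrays has a smallest possible p of 0.333. The calls, of these and of all genes, also depend on the number of arrays kept. A fit without 1 empty vector array leaves 1 array in that group, and the calls of the 53 genes are not kept in it. Over all alternative fits, these included, the log2 difference of Lce1h lay between -2.78 and -2.65 and that of Sprr1a between 1.24 and 1.36. Several of these fits leave a log2 difference as it is, so the narrow ranges are partly built in. When the control probe sets were also fitted, 1 lower (Lce1h) and 1 higher (Sprr1a) were past the threshold.

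**Figure D1:**
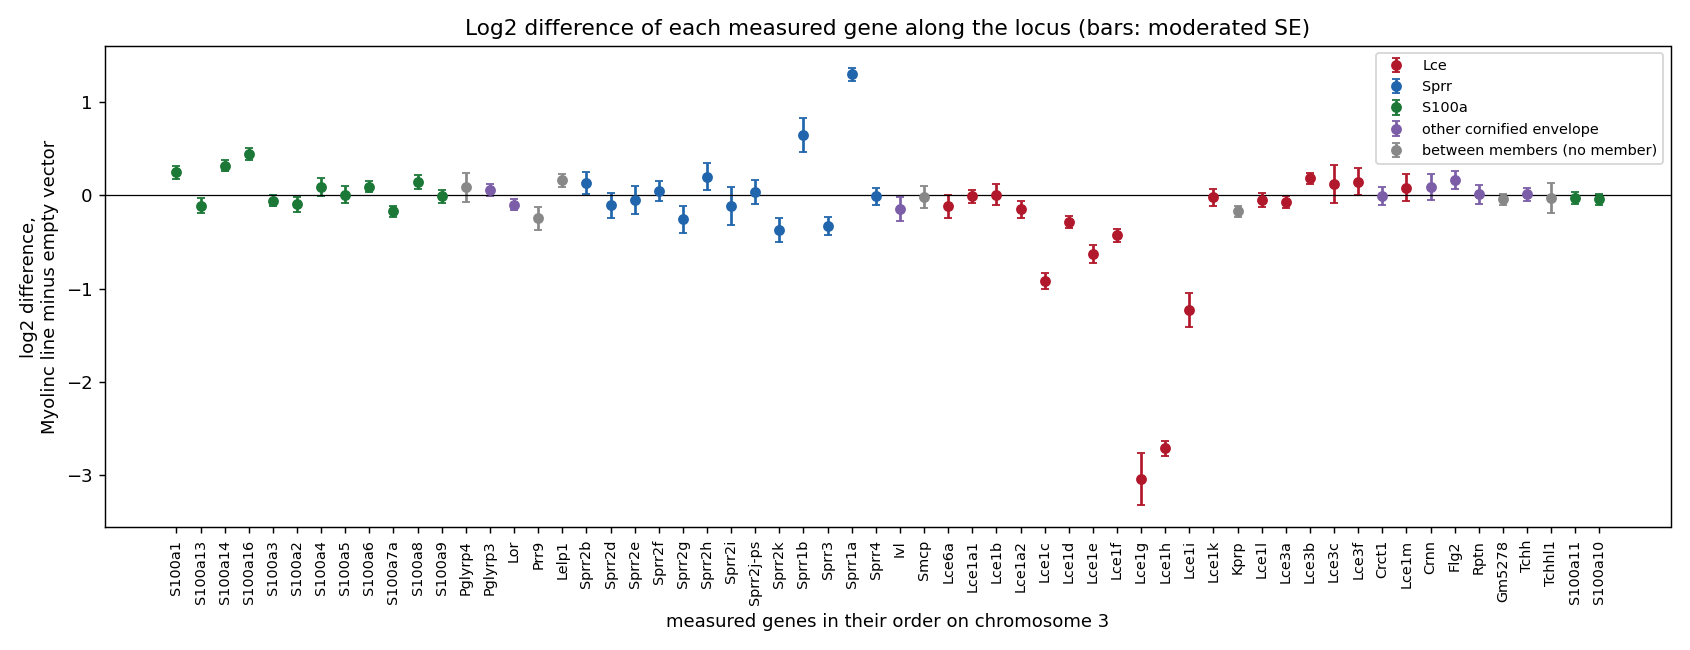
Log2 difference (Myolinc line minus empty vector) of the 53 genes and of 7 measured genes lying between them, in their order on chromosome 3, with bars for the moderated SE. The low values sit in the consecutive Lce1 genes from Lce1c to Lce1i, down to -3.05, and the highest value is Sprr1a at 1.30.

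**Figure D2:**
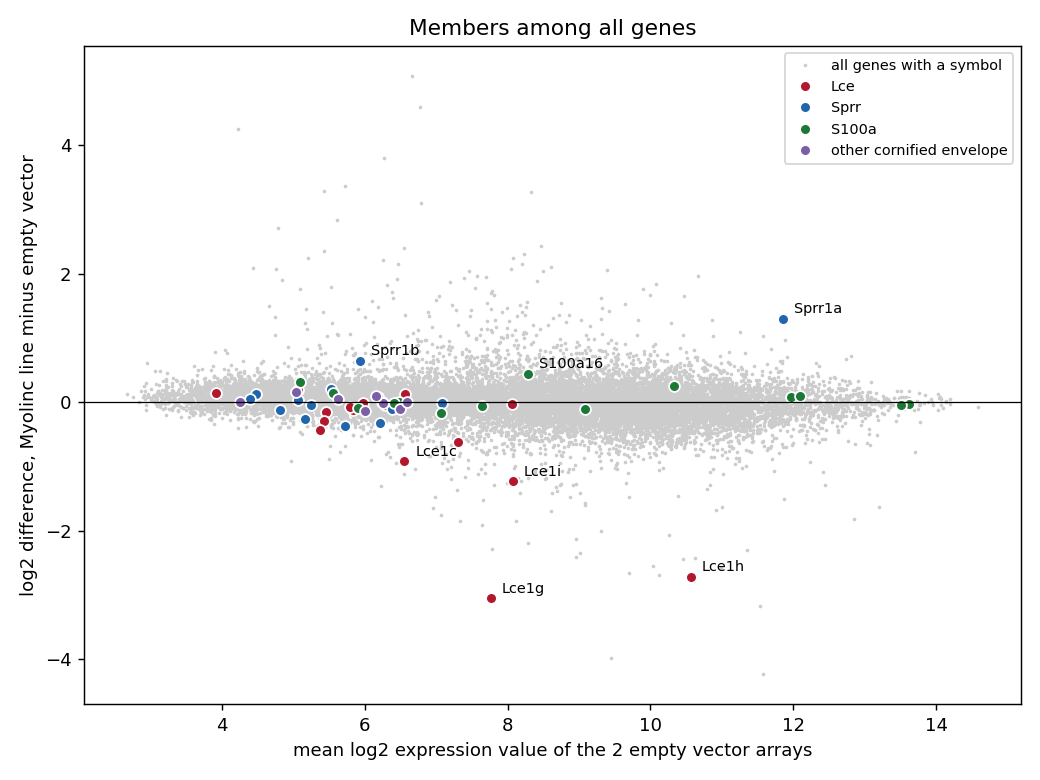
Log2 difference (vertical) against the mean log2 value of the 2 empty vector arrays (horizontal) for all 20193 genes in grey and the 53 genes in colour by family. Most of the 53 lie near 0, with Lce1g, Lce1h and Lce1i far below and Sprr1a above.

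The late cornified envelope genes of the Lce1 group encode small proteins rich in cysteine and glycine that are added to the cornified envelope late. Lce1h stood at 10.63 and 10.50 in the empty vector arrays and at 7.80 and 7.90 in the Myolinc arrays. The groups were far apart and each pair of arrays was close. The log2 difference was -2.71 (SE 0.08), from 10.56 ± 0.09 to 7.85 ± 0.07 (SD, n = 2 per group). The empty vector replicate 2 value is stored with 3 digits, and the log2 difference in the authors' deposited table, -2.73, implies 10.54 for it. Lce1g stood at 7.37 and 8.16 in the empty vector arrays and at 4.68 and 4.77 in the Myolinc arrays. Its empty vector arrays differed more from each other than those of any other gene here (SD 0.56), and the groups still did not overlap. The log2 difference of Lce1g was -3.05 (SE 0.28), or -2.65 without empty vector replicate 2 and -3.44 without replicate 1. Its mean in the Myolinc line was low enough that 6.92% of all genes read lower there. The values used here carry no detection call, so Lce1g is not shown to be above background in the Myolinc line, and no exact fold is given for it.

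The other genes of the stretch had smaller differences, in no order of distance from this pair. Lce1i, next to Lce1h, stood at 8.06 and 8.08 in empty vector cells and at 6.59 and 7.09 in the Myolinc line, a log2 difference of -1.23 (SE 0.18). Here the Myolinc arrays, not the empty vector arrays, were the pair that differed. Lce1c stood at 6.62 and 6.50 against 5.72 and 5.56 (log2 difference -0.92, SE 0.09). Lce1e stood at 7.38 and 7.23 against 6.76 and 6.59 (-0.63, SE 0.09). In both genes each Myolinc array lay below each empty vector array, by more than the gap within a group. Lce1f, at 5.40 and 5.34 against 5.00 and 4.90, had a log2 difference of -0.43 (SE 0.07) and was past the threshold. Lce1d, at 5.40 and 5.45 against 5.18 and 5.09, had one of -0.29 (SE 0.07) and was not. Its groups did not overlap, as lower, like those of 26% of all genes. Lce1c, Lce1d and Lce1f were low readings in all 4 arrays.

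Outside that stretch the Lce1 genes did not pass the threshold. On one side Lce1a1, Lce1b and Lce1a2 had log2 differences between -0.15 and 0.01, and on the other Lce1k, Lce1l and Lce1m between -0.05 and 0.08. Lce1a2 alone among these had groups that did not overlap, as lower. Lce1k alone was not a low reading and stood at 8.15 and 7.96 in empty vector cells and at 8.08 and 7.99 in the Myolinc line, with overlapping groups and a log2 difference of -0.02 (SE 0.09, 95% interval -0.27 to 0.23). Of the 13 Lce1 genes 6 were past the threshold as lower, 0 as higher in limma (0 at an unadjusted p under 0.05) and 7 were not past it. The groups did not overlap for 8 of the 13 as lower (61.5%), beside 26% of all genes. The 5 measured Lce3 and Lce6 genes (Lce3a, Lce3b, Lce3c, Lce3f and Lce6a) had log2 differences between -0.12 and 0.18, all were low readings, and 0 passed in limma (1, Lce3b, at an unadjusted p under 0.05). Lce3c had the widest pair of arrays among them, 6.97 and 6.41 in the Myolinc line.

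**Figure D3:**
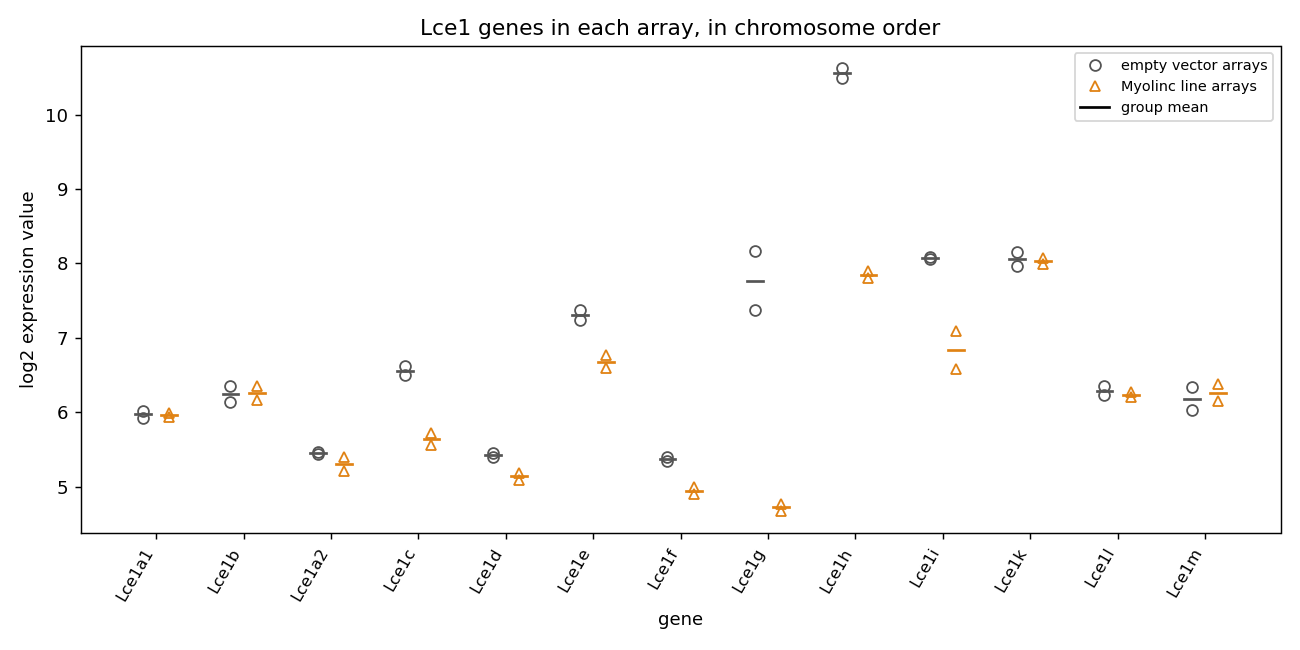
Log2 expression value of each of the 13 measured Lce1 genes in the 4 arrays, in chromosome order, with circles for empty vector arrays, triangles for Myolinc line arrays and a line for each group mean. The groups are apart from Lce1c to Lce1i, most in Lce1g and Lce1h, and narrowly in Lce1a2, and overlap in Lce1k, which reads about 8 in all arrays.

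The promoters of these genes were set side by side, since the Lce1 genes are close copies of one another and the low values fell on neighbours. RefSeq promoters of GRCm38.p6 (300 bases, from 250 before the start to 50 after it) were matched by symbol for 45 of the 53 genes and for 12 of the 13 Lce1 genes, Lce1f being the one not listed. The promoters shown are those of the genes with the lowest values (Lce1g, chr3:92752289-92752588, and Lce1h, chr3:92765016-92765315) and of a pair with no such difference (Lce1l, chr3:92851237-92851536, and Lce1k, chr3:92807842-92808141), each 5′ to 3′ on the minus strand. Capitals mark ATAAAAGGAC, the longest run of letters that the promoters of Lce1c, Lce1d, Lce1e, Lce1g, Lce1h and Lce1i have in common.
Lce1g: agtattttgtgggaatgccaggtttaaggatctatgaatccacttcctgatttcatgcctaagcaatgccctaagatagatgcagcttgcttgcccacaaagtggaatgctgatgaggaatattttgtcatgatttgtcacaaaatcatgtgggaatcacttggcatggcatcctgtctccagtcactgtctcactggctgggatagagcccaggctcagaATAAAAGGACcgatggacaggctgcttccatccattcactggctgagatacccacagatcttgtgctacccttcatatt
Lce1h: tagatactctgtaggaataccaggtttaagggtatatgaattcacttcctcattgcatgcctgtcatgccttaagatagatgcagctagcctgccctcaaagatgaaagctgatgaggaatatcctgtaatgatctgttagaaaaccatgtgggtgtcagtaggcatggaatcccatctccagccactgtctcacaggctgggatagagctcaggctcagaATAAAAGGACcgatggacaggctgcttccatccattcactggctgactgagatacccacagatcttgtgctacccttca
Lce1l: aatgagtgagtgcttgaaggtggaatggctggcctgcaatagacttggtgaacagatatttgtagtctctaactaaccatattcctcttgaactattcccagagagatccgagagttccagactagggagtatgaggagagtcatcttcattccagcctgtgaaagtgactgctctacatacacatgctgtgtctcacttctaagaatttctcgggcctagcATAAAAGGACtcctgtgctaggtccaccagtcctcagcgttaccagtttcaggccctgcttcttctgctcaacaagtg
Lce1k: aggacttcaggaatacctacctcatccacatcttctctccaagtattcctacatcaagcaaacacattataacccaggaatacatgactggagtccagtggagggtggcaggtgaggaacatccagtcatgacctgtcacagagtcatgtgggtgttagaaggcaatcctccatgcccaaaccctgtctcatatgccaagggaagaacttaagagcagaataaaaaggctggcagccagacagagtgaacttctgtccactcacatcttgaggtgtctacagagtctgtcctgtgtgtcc

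The run was found in these promoters after the differences were known. It is a description, and whether a protein binds it was not tested. Searched on both strands it occurred in 7 of the 12 Lce1 promoters, in no other promoter of the 53 genes and in 37 of 32851 promoters of all genes (0.113%). The 7th Lce1 promoter with it was that of Lce1l, whose log2 difference was -0.05 (SE 0.07), so the letters are also present where no difference past the threshold was seen. The promoter of Lce1d, also not past the threshold, held it too. Over the whole 300 bases, the promoters of Lce1h, Lce1i, Lce1e and Lce1c were between 70.4% and 86.0% identical to that of Lce1g in a global alignment, and those of the 7 genes not past the threshold between 48.7% and 66.8%. Against Lce1h the ranges were 70.8% to 84.6% and 47.8% to 64.6%. The genes most like Lce1g and Lce1h in this window were thus those past the threshold, over 11 pairs that share a cluster and an origin by duplication. Lce1d, of the same stretch but not past the threshold, was 65.5% identical to Lce1g, below Lce1a2 at 66.8%. Against Lce1h it was 64.4% identical, below Lce1a1 at 64.6%. The probes' sequences were not used here, and how far a probe set of one Lce1 gene also reads its neighbours was not tested.

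**Figure D4:**
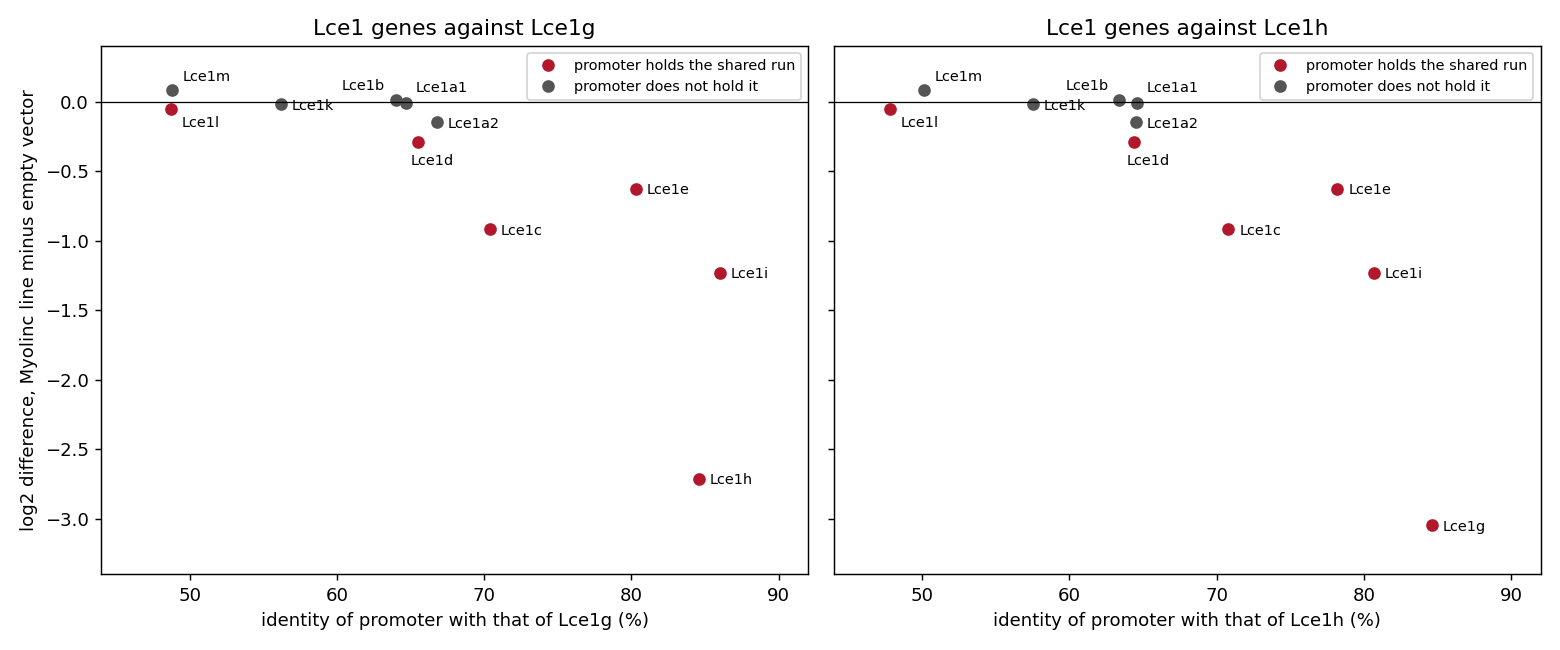
Log2 difference of each Lce1 gene (Myolinc line minus empty vector) against the identity of its promoter with that of Lce1g (left) and Lce1h (right), in percent. Red points hold the shared run, and the genes with identity of 70.4% or more on the left are those with values of -0.63 or lower.

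The small proline-rich genes encode cross-bridging proteins of the cornified envelope, and Sprr1a is also known outside skin as a gene induced in injured neurons and stressed heart muscle. Sprr1a stood at 11.92 and 11.80 in the empty vector arrays and at 13.16 in both Myolinc arrays. Both pairs were tight and far apart, and all 4 values lay above the median level. The log2 difference was 1.30 (SE 0.07), from 11.86 ± 0.08 to 13.16 ± 0.00 (SD 0.000425 in the Myolinc line). The empty vector replicate 2 value is again stored with 3 digits, and the authors' deposited table, with a log2 difference of 1.28, implies 11.83. Sprr1b, its nearest relative by name, stood at 5.78 and 6.09 against 6.79 and 6.39, a log2 difference of 0.65 (SE 0.18) on low readings. It was not past the threshold. Both Myolinc arrays lay above both empty vector arrays, as in 27.9% of all genes.

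The other Sprr genes were low readings in both groups. Sprr3 stood at 6.28 and 6.14 against 5.98 and 5.79 (log2 difference -0.33, SE 0.10). Sprr4, at 7.14 and 7.03 against 7.15 and 6.996, had overlapping groups (-0.01, SE 0.09). The 9 Sprr2 genes and pseudogenes had log2 differences between -0.37, for Sprr2k, and 0.20, for Sprr2h. Sprr2d, the highest of them, stood at 6.56 and 6.22 against 6.34 and 6.23 (-0.11, SE 0.13). Of these 9 only Sprr2k had groups that did not overlap, at 5.89 and 5.56 against 5.37 and 5.35. That is 11.1% as lower and 0% as higher, beside 26% and 27.9% of all genes. Of the 13 Sprr genes 1 was past the threshold as higher and 0 as lower in limma. At an unadjusted p under 0.05, 2 were lower (Sprr2k and Sprr3) and 2 higher (Sprr1a and Sprr1b). The Sprr2 genes are near-identical copies, so their separate values are uncertain.

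The Sprr1a promoter (chr3:92485832-92486131, minus strand, 5′ to 3′) is shown because Sprr1a was the gene with the largest rise here and because SPRR genes are textbook targets of AP-1, the Fos and Jun factors. Capitals mark matches to TGANTCA, the AP-1 motif.
Sprr1a: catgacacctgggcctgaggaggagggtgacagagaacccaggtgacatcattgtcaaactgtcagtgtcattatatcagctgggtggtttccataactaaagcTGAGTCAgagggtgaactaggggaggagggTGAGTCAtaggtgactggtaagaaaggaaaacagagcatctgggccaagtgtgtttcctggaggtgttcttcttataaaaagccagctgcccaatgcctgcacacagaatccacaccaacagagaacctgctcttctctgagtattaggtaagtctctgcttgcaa
It held 2 matches. Of the 11 Sprr genes with a listed promoter 9 held at least 1, as did 5 of the 6 other cornified envelope genes with one (Lor, Ivl, Crnn, Flg2 and Rptn), 2 of the 11 S100a genes (S100a11 and S100a16) and 0 of the 17 Lce genes. Over all promoters 7.81% held a match, on either strand. Of the 9 Sprr genes with a match, Sprr1a and Sprr1b had positive log2 differences. Those of the 7 Sprr2 genes with a match, all low readings, lay on either side of 0. Whether the match bears on these values was not tested. Of the 3 measured AP-1 genes on the list of regulators, Junb stood at 9.28 and 9.25 against 8.92 and 8.74 (log2 difference -0.43, SE 0.09) and Fosl2 at 10.44 in both empty vector arrays against 10.22 and 10.10 (-0.28, SE 0.07). Jun went the other way, at 11.05 and 11.07 against 11.25 and 11.18 (0.15, SE 0.06). None of the 3 was past the threshold.

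**Figure D5:**
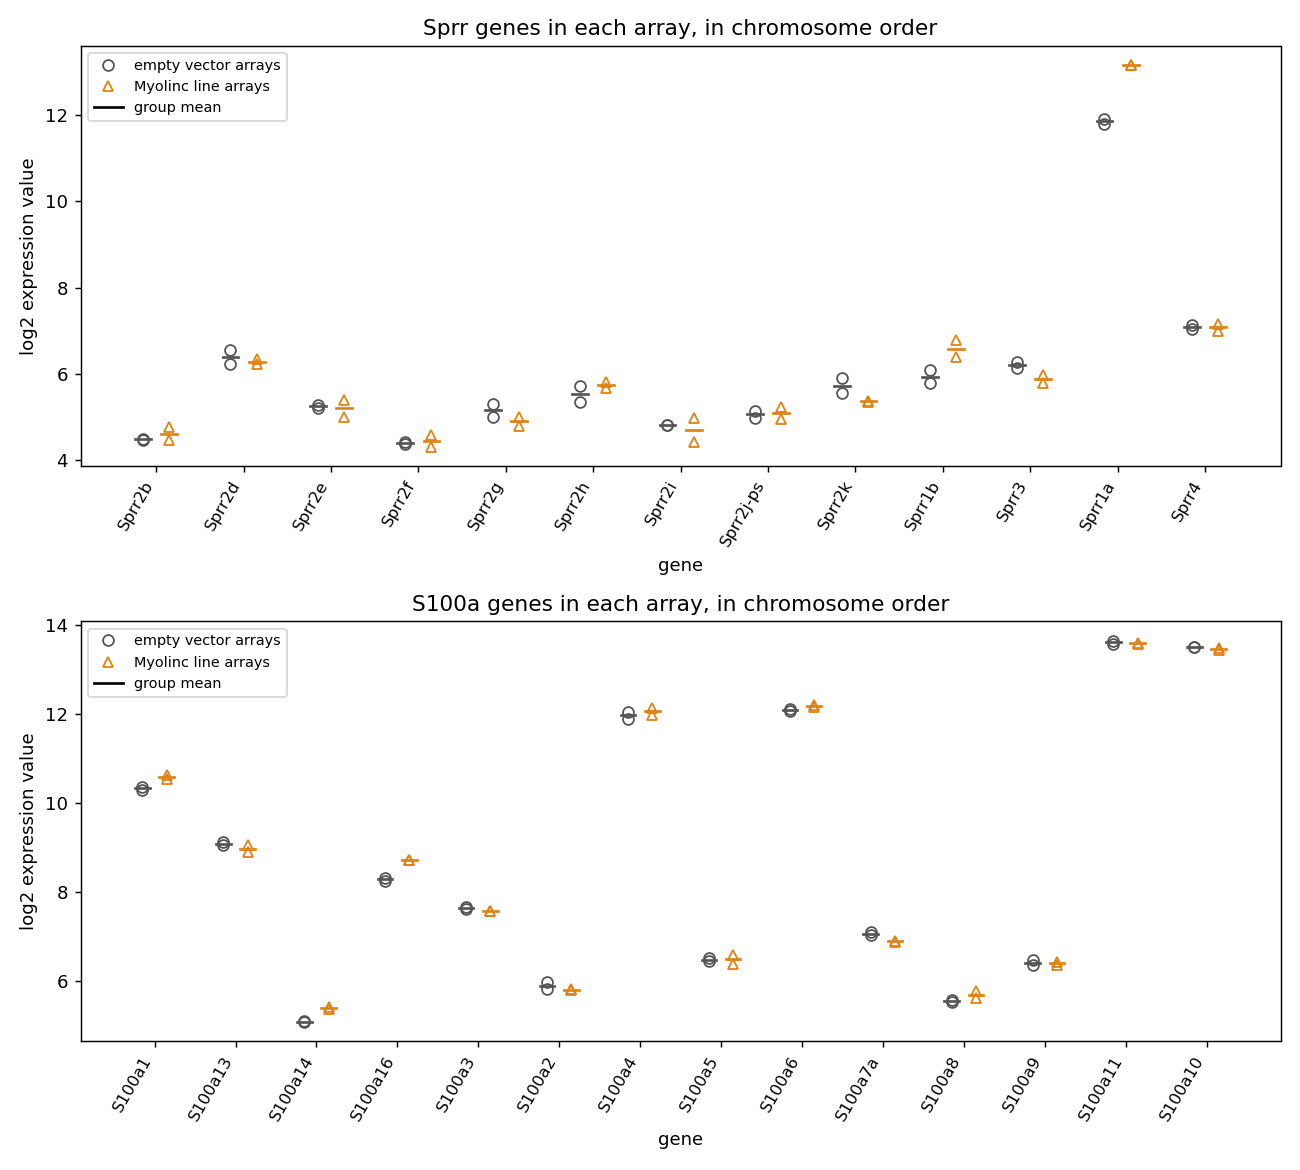
Log2 expression value of each Sprr gene (top) and S100a gene (bottom) in the 4 arrays, in chromosome order, with circles for empty vector arrays, triangles for Myolinc line arrays and lines for group means. Sprr1a moves from about 11.9 to 13.2, whereas S100a10, S100a11, S100a4 and S100a6 read between 11.9 and 13.6 in both groups.

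Of the 14 S100A genes 8 read above the median level in these myoblasts and 6 below it. S100a10, whose product p11 pairs with annexin A2 at the plasma membrane, stood at 13.50 and 13.51 in empty vector cells and at 13.49 and 13.44 in the Myolinc line. S100a11, also an annexin partner, stood at 13.65 and 13.58 against 13.58 and 13.59. Both were nearly level, with log2 differences of -0.04 (95% interval -0.20 to 0.12) and -0.03 (-0.20 to 0.14). S100a6 (calcyclin) stood at 12.12 and 12.06 against 12.16 and 12.21, a log2 difference of 0.09 (-0.07 to 0.26). S100a4, known from fibroblasts and cell motility, stood at 11.89 and 12.05 against 12.13 and 11.99 (0.09, -0.16 to 0.34). For these 4 genes the intervals left room for log2 changes of at most 0.34 in size.

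S100a16, a widely expressed member of the family, was the S100a gene past the threshold. It stood at 8.25 and 8.33 in empty vector cells and at 8.73 in both Myolinc arrays, a log2 difference of 0.44 (SE 0.06). It was not past the threshold with the replicate number as a block, with the control probe sets kept, with arrays centred on their medians or with any 1 array left out, while its log2 difference stayed between 0.40 and 0.48. S100a14, its neighbour on the chromosome and a gene of epithelia, stood at 5.08 and 5.11 against 5.43 and 5.39 (0.32, SE 0.06), on low readings. S100a1, the S100 protein of striated muscle that acts on calcium release and on titin, stood at 10.29 and 10.37 against 10.62 and 10.54 (0.25, SE 0.07). In both genes the Myolinc arrays lay above the empty vector arrays, as in 27.9% of all genes, and neither was past the threshold. S100a13 stood at 9.12 and 9.05 against 9.05 and 8.90 and S100a3 at 7.66 and 7.61 against 7.58 and 7.57, both within 0.11 on the log2 scale. S100a8 and S100a9, which together form calprotectin of neutrophils, had low readings and log2 differences of 0.14 (SE 0.08) and -0.01 (SE 0.07). The remaining S100a2, S100a5 and S100a7a were low readings with log2 differences of -0.10, 0.01 and -0.17. Of the 14 S100a genes 1 was past the threshold as higher and 0 as lower in limma, and 12 had a difference under 0.25 in size. At an unadjusted p under 0.05, 3 were higher (S100a1, S100a14 and S100a16) and 1 lower (S100a7a).

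The 8 other genes of the rule were low readings throughout, with means between 4.26 and 6.60. Loricrin (Lor), the main protein of the cornified envelope, stood at 6.52 and 6.48 against 6.40 and 6.40 (log2 difference -0.10, SE 0.06). Involucrin (Ivl), its early scaffold, stood at 6.07 and 5.94 against 6.02 and 5.71 (-0.14, SE 0.13). The hair follicle protein gene Tchh stood at 6.63 and 6.57 against 6.67 and 6.55. Crct1 stood at 6.23 and 6.29 against 6.15 and 6.35 (-0.01, SE 0.09), and Crnn stood at 6.35 and 5.97 against 6.26 and 6.25 (0.09, SE 0.14). The log2 differences of Tchh, Flg2, Rptn and the peptidoglycan sensor gene Pglyrp3 were 0.01, 0.16, 0.01 and 0.06. Of these 8 genes 0 passed in limma, and 0 did at an unadjusted p under 0.05. The groups overlapped in 6 of the 8. They did not overlap in 12.5% as lower and 12.5% as higher, beside 26% and 27.9% of all genes.

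The rule left out 7 measured genes that lie between its members on the chromosome: Pglyrp4, Prr9, Lelp1, Smcp, Kprp, Gm5278 and Tchhl1. Their log2 differences lay between -0.25 and 0.16. In limma 0 of them passed, and 1 (Kprp, -0.17, SE 0.06) did at an unadjusted p under 0.05. Kprp, a keratinocyte proline-rich protein gene, lies between Lce1k and Lce1l. The 778 genes of chromosome 3 outside the rule had a median log2 difference of -0.02. Among them 57 (7.33%) were past the threshold as lower and 26 (3.34%) as higher, beside 3.96% and 3.97% of all genes.

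Other genes of cornification were read beside the Lce1 genes. Over this and the other 8 gene lists, 4 of 165 distinct measured genes fell (2.42%) and 12 rose (7.27%), beside 3.96% and 3.97% of all genes. Of the 165, limma called 0 without empty vector replicate 1, where 29 had an unadjusted p under 0.05, and 0 without replicate 2, where 34 had one. Of 31 measured cornified envelope and keratinocyte structure genes outside the rule, 1 fell, 2 rose and 28 did not pass, with a median log2 difference of 0.03. The gene that fell was Krt14, a keratin of basal keratinocytes, from 8.93 and 8.98 to 6.57 and 6.53 (log2 difference -2.41, SE 0.06). Corneodesmosin (Cdsn), an adhesive protein of cornified cells, rose from 8.26 and 8.27 to 8.84 and 9.01 (0.67, SE 0.08), and plakoglobin (Jup), of desmosomes and adherens junctions, from 10.34 and 10.39 to 10.93 and 10.95 (0.58, SE 0.06). The protease inhibitor gene Cst6 stood at 8.11 and 8.17 against 8.49 and 8.40 (0.30, SE 0.07) and did not pass. Of 24 measured regulators of epidermal differentiation 0 passed in limma, with 4 lower (Junb, Gata3, Fosl2 and Cebpb) and 2 higher (Satb1 and Nfe2l2) at an unadjusted p under 0.05. The chromatin organiser gene Satb1 stood at 6.46 and 6.45 against 6.83 and 6.74 (0.33, SE 0.06). Gata3 stood at 9.05 and 9.11 against 8.81 and 8.82 (-0.27, SE 0.06). The epidermal regulator genes Klf4 and Trp63 had log2 differences of -0.04 and 0.05.

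Among genes tied to the S100 proteins, 2 of 29 partners and receptors rose, 0 fell and 27 did not pass, with a median of 0.08. At an unadjusted p under 0.05 in limma, 8 of the 29 were higher and 2 (Atp2a2 and Cacybp) lower. Titin (Ttn), a partner of S100a1, rose from 8.06 and 8.35 to 9.42 and 9.80 (1.40, SE 0.18), and tissue plasminogen activator (Plat) from 9.24 and 9.35 to 10.14 and 10.07 (0.81, SE 0.07). Plau stood at 10.50 and 10.60 against 10.99 and 10.93 (0.41, SE 0.07) and Tlr4 stood at 8.70 and 8.81 against 9.08 and 9.23 (0.40, SE 0.09), and neither passed. Annexin A2 (Anxa2), the partner of S100a10, had a log2 difference of 0.02. Of 27 other EF-hand and calcium-linked genes 1 rose and 1 fell. Efhd1, a mitochondrial calcium sensor gene, rose from 7.11 and 7.28 to 9.07 and 9.04 (1.86, SE 0.08), and Ncs1, neuronal calcium sensor 1, fell from 11.46 and 11.42 to 11.01 and 10.92 (-0.47, SE 0.07). Capns1 stood at 12.95 and 12.85 against 13.24 and 13.21 (0.32, SE 0.07) and Calm3 stood at 11.11 and 11.16 against 11.38 and 11.41 (0.26, SE 0.06), and neither passed. In the same list S100b had -0.02 on low readings.

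Markers of cell types that could carry these transcripts were read in the same arrays. Of 14 keratinocyte markers Krt14 fell and 13 did not pass, and 10 of them, Krt5, Krt1, Krt10 and Trp63 included, were below the median level over probe sets. Their summed level, as log2 of the sum of unlogged values, lay at 11.43 to 11.44 in empty vector cells and 11.22 to 11.24 in the Myolinc line. Without Krt14, a sum added after the values were seen, it lay at 11.15 in both empty vector arrays and at 11.16 and 11.19 in the Myolinc arrays, and 8 of the other 13 markers had a positive difference. Of all 14 markers, 3 (Krt14, Sfn and Lgals7) were lower and 0 higher at an unadjusted p under 0.05 in limma. Sfn stood at 7.75 and 7.77 against 7.30 and 7.54 (-0.34, SE 0.10). Lgals7 stood at 7.23 and 7.22 against 7.08 and 7.06 (-0.16, SE 0.06), and Krt10 stood at 7.11 and 7.18 against 7.33 and 7.20 (0.12, SE 0.07). Of 12 simple epithelium markers 0 passed in limma (3 lower at an unadjusted p under 0.05), with summed levels of 10.33 to 10.45 and 10.30 to 10.31, and Epcam and Cdh1 were among the 10 below the median. Krt19 stood at 6.69 and 6.78 against 6.51 and 6.40 (-0.28, SE 0.07) and Krt8 stood at 7.95 and 7.90 against 7.66 and 7.75 (-0.22, SE 0.07). Krt7 stood at 7.07 and 7.22 against 6.94 and 6.88 (-0.23, SE 0.08) and Esrp1 stood at 5.38 and 5.31 against 5.48 and 5.33 (0.06, SE 0.08). Of 14 neutrophil and macrophage markers 1 rose (Cd53), 1 fell (Cd68), 12 were below the median, Ptprc and Lyz2 included, and summed levels were 10.38 to 10.39 and 10.43 to 10.50. Cd53 stood at 6.19 and 6.39 against 7.11 and 7.18 (0.86, SE 0.09) and Cd68 stood at 8.43 and 8.45 against 7.98 and 7.97 (-0.46, SE 0.06). Cd14 stood at 7.56 and 7.72 against 8.09 and 8.06 (0.44, SE 0.08) and Fcer1g stood at 6.02 and 5.97 against 6.34 and 6.20 (0.28, SE 0.08), and neither passed.

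Most myoblast markers read above the median level in both groups, Pax7 only just, and Myog was a low reading (log2 difference 0.06, SE 0.09). Of the 13 differences 12 were positive and 1, that of Pax7, was negative (-0.21, SE 0.14). Of 13 myoblast markers 12 were above the median level, 5 rose, 0 fell and 8 did not pass. Of all genes 3.97% were past the threshold as higher and 3.96% as lower. The median log2 difference of the 13 markers was 0.34, beside 0.02 for all genes. Their summed level went from 14.57 in both empty vector arrays to 14.95 in both Myolinc arrays. The receptor kinase gene Musk stood at 8.87 and 8.86 against 10.21 and 10.22 (1.35, SE 0.06) and the laminin receptor gene Itga7 stood at 10.26 and 10.30 against 11.47 and 11.55 (1.23, SE 0.06). The sarcoglycan gene Sgca stood at 7.84 and 7.69 against 9.22 and 9.22 (1.45, SE 0.08). The cadherin gene Cdh15 stood at 10.47 and 10.41 against 10.97 and 10.89 (0.49, SE 0.06). Of 11 fibroblast markers 1 fell (Col1a1) and 1 rose (Col3a1), with summed levels of 12.29 to 12.33 and 12.36 to 12.37. Col1a1 stood at 9.63 and 9.70 against 8.42 and 8.40 (-1.25, SE 0.06) and Col3a1 stood at 9.52 and 9.53 against 10.10 and 10.33 (0.69, SE 0.10). Fbln1 stood at 10.06 and 10.04 against 10.40 and 10.35 (0.33, SE 0.06) and Dpt stood at 5.38 and 5.32 against 5.81 and 5.63 (0.36, SE 0.09), and neither passed. The part of these markers in the Lce1, Sprr1a and S100a16 values was not tested.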

How the data were processed

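Per the labels, biotin-labelled cRNA from 4 C2C12 samples was hybridised to Affymetrix arrays. The authors deposited log2 expression values. The submitters' processing notes list RMA and limma, with no version. The authors' deposited table also gives a log2 difference and a p-value per gene, per the file headers. The p-value was not used. For probe annotation, build and filters the sources used here give nothing.

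Of 35556 rows, the 6612 lowest-numbered, none of them with a symbol, were left out as control probe sets. The other 28944 were fitted whatever their level, and 20193 of them carry a symbol. The fit was limma 3.58.1 in R 4.3.3 (lmFit and eBayes, default settings), for the difference Myolinc line minus empty vector. Tests were two-sided, p-values were adjusted by Benjamini-Hochberg over the 28944 probe sets, and the threshold was 0.05. Residual degrees of freedom were 2 and prior ones 2.18. SEs and intervals (95%) are the moderated ones. The fit was also run on simulated data with independent noise in each array. Such data cannot show whether the arrays of a group share an effect of their line. Summed levels add unlogged values. Promoters were aligned with Biopython 1.88 in Python 3.11.15 and figures drawn with matplotlib 3.10.9.

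The genes and the 9 lists were chosen with earlier results of these data known. Named were members past the threshold, the members of each family with the highest levels, the list genes with the smallest p (up to 4) and those of any count of 5 or fewer. The values of 1 myoblast marker are not reported here. Other genes named in the text, such as Anxa2, Klf4, Trp63 and S100b, were chosen after their values were seen. Alternatives were the replicate number as a block, variance priors that are trended and robust, a filter on lower-level probe sets, quantile normalization, median centring, keeping the control range, rows with a symbol alone, leaving out each array, subtracting the chromosome's median, thresholds of 0.01 and 0.1, and recovery of values stored with 3 digits, which was chosen after seeing the data. Deviations of the replicate 1 arrays from their group means correlated at 0.215 over probe sets. With 2 pairs this does not settle a pairing, so the block stayed an alternative.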

Additional observations from a re-analysis of the deposited data

How the results depend on the processing

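The log2 differences of Lce1g, Lce1h, Lce1i, Lce1c, Lce1e, Lce1f, Sprr1a and S100a16 kept their sign in every alternative that measured them, and their calls did not. The groups of these genes did not overlap, so leaving out any 1 array could not change a sign. A block, other variance priors and other sets of rows leave the difference itself as it is. The kept signs are therefore largely fixed by the design. With a replicate block, which the labels' numbers allow but nothing shows to be a pairing, 1 member was past the threshold as lower (Lce1h) and 1 as higher (Sprr1a), and list genes fell to 2 lower and 5 higher. With the control range kept these counts were 1, 1, 2 and 4, and at a threshold of 0.01 they were 1, 1, 2 and 4 again. At a threshold of 0.1 and with symbol rows alone 26 and 21 list genes were higher, beside 12. Trended and robust variance priors gave 4 members higher and 10 list genes lower and 29 higher. Leaving out lower-level probe sets removed Lce1c, Lce1e, Lce1f and Lce1g from the fit, so 2 members were lower, with 14 list genes lower and 29 higher, and the family medians, then over few genes, were -1.23 (Lce), 1.30 (Sprr) and 0.0292 (S100a). Median centring left 1 member higher, with medians of -0.0535 for all members, -0.0440 for S100a and -0.0317 for other cornified envelope genes. Further quantile normalization moved the medians to -0.0542 for all members, -0.15 for Lce, -0.0348 for S100a and -0.0430 for other cornified envelope genes.

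Leaving out each array in turn, members past the threshold ranged from 0 to 5 as lower and 0 to 2 as higher, and list genes from 0 to 2 and 0 to 12. The counts of 0 came without either empty vector array in limma, with 29 and 34 list genes at an unadjusted p under 0.05. Medians then ranged from -0.0723 to 0.0120 for all members, -0.13 to -0.0423 for Lce, -0.0834 to 0.0604 for Sprr, -0.0333 to 0.0273 for S100a and -0.0576 to 0.0407 for other cornified envelope genes. Such medians near 0 have no stable sign. Low signal limits what can be said of the 41 members below the median level.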
